A study of Mus musculus with 3 samples.

Results

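The 10 genes described here encode enzymes of glycolysis and 1 regulator of it: Hk2, Hk3, Pfkfb3, Aldoa, Tpi1, Gapdh, Pgk1, Eno1, Pkm and Ldha. They were named by symbol, chosen with earlier results of these data known, and all 10 were found among the 28692 genes of the files. Their RNA was measured by single-cell RNA sequencing (10x Genomics Chromium, 3′ kit, v2) of viable liver cells with high F4/80 and intermediate CD11b, the surface pattern of Kupffer cells, the resident macrophages of the liver. There was 1 male mouse and 1 library for each diet: normal chow, a liquid diet of the Lieber-DeCarli type that held 5% ethanol, fed for 3 days, and the same liquid diet fed for 10 days. The mice were 8 weeks old. The chow mouse ate solid food without ethanol, so the form of the diet and the ethanol vary together. With 1 library a diet, a difference between diets cannot be told apart from a difference between mice, livers or libraries, and no p-value is given. Intervals cover counting error alone.

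Glycolysis turns glucose into pyruvate in the cytosol and yields ATP and NADH, and lactate dehydrogenase regenerates the oxidised cofactor by turning pyruvate into lactate. In macrophages the pathway is known to be raised by inflammatory stimuli and by low oxygen, partly through the transcription factor HIF, and resting tissue macrophages use it together with oxidation of fatty acids and glutamine. Hepatocytes, the main cells around Kupffer cells, oxidise ethanol, which shifts their own balance of NADH.

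HIF binds DNA at sites with the core letters ACGTG, and several glycolysis genes are textbook HIF targets. The 300-base promoter windows of RefSeq on GRCm38.p6, which run from 250 bases before a start to 50 after it, were searched for ACGTG on either strand. A window was found for all 10 members, some with several starts, and 8 of the 10 had the letters in at least 1 window. Counted by window, 10 of the 17 windows of the members held them, some of which overlap. Of all 32851 windows of this length, 19.6% held them, 8.21% held at least 2 matches and 1.73% at least 3. The windows of 4 members with matches are shown: Ldha, Pgk1 and Hk2 as textbook HIF targets, and Gapdh as the member with the most RNA in Kupffer-like cells. Capitals mark each match as printed or on the other strand, and each window is given 5′ to 3′ in the gene's direction.
Ldha (chr7:46845554-46845853, + strand): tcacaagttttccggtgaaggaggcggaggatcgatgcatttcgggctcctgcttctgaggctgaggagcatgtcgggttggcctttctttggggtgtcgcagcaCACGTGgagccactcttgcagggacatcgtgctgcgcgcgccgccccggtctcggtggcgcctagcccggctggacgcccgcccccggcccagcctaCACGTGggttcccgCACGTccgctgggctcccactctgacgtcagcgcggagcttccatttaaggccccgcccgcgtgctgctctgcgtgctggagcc
Pgk1 (chrX:106186850-106187149, + strand): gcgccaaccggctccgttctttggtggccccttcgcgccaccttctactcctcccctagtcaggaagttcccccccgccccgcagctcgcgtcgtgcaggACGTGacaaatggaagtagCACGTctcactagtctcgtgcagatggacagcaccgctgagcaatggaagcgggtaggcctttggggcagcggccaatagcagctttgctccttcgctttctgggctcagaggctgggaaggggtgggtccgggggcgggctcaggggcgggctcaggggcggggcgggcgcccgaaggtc
Hk2 (chr6:82774405-82774704, - strand): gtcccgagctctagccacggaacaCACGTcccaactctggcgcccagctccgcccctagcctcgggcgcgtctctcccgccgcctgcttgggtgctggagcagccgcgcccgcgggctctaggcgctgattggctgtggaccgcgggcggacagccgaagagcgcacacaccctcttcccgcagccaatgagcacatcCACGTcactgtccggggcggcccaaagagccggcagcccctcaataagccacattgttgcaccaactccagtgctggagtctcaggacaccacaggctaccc
Gapdh (chr6:125165724-125166023, - strand): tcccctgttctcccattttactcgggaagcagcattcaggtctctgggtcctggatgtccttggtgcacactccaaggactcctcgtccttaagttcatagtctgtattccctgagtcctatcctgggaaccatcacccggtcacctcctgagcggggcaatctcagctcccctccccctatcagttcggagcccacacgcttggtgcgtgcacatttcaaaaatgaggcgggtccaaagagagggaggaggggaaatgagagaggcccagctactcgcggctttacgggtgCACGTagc

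The Ldha window held 5 matches at 3 places, since the palindrome CACGTG counts on both strands: at -145 and -144, at -48 and -47, and at -34 from the start. Pgk1 had matches at -150 and -131, Hk2 at -226 and -52, and Gapdh had 1 at 43. Hk3 had 1 match, Pkm had 2 in window 2, and Pfkfb3 had 1 in window 1 and, as a palindrome read on both strands, 2 in window 2. Aldoa windows 2 and 3 overlap and hold 1 match in common. Tpi1 and Eno1 had none in any of their windows, and neither had window 1 of Aldoa, window 1 of Pkm or window 2 of Ldha. A match is a description of letters and not a measured site.

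The libraries held 21650747 UMIs on chow, 21471782 after 3 days and 16538895 after 10 days (UMIs, unique molecular identifiers, count captured RNA molecules), and 2767, 4061 and 3014 barcodes were kept as cells. Median depth per cell was 4552 UMIs on chow, 3051 after 3 days and 2982 after 10 days. Clusters built without the glycolysis and other metabolic lists gave 2387, 3595 and 2613 Kupffer-like cells, in which all 14 Kupffer markers were present at 10 CPM or more (a gene's counts scaled to 1000000 UMIs of the class) and summed to 39269, 38246 and 37874 CPM. The same clustering gave 49, 110 and 78 endothelial-like cells and 117, 90 and 153 lymphoid-like cells (T, NK and innate lymphoid cells), which the sort was not aimed at. The Kupffer markers had also served to name the clusters, and all 14 reached 10 CPM in both of these classes too. Their sums were lower there, at 14279, 10383 and 10016 CPM in endothelial-like and 2859, 2630 and 2567 CPM in lymphoid-like cells. Kupffer-like cells came mostly from different clusters on each diet: cluster 3 held 1487 of 2387 on chow, cluster 6 held 2043 of 3595 after 3 days, and clusters 5 and 0 held 1127 and 694 of 2613 after 10 days. Clusters in which Kupffer markers stood beside those of T cells, neutrophils or red cells were left out and held 4.34%, 4.60% and 2.85% of cells. Cells of the chow library shared 20 barcodes with the 3-day library and 13 with the 10-day library, which shared 20 with each other. Barcodes with 1 to 100 UMIs, which hold free RNA rather than cells, took 23.2%, 21.8% and 21.1% of all UMIs.

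In Kupffer-like cells the summed RNA of the 10 genes was lower after both ethanol times than on chow. The sum was 1735 CPM on chow, 1379 CPM after 3 days and 1429 CPM after 10 days. The ratio was 0.795 (95% interval 0.778 to 0.811) for 3 days over chow and 0.824 (0.805 to 0.843) for 10 days over chow, while 10 days over 3 days gave 1.04 (1.013 to 1.06). Gapdh accounted for the largest part in CPM, and without it the ratios were 0.831 and 0.851. The comparisons share the chow library, so they do not repeat each other.

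**Figure D1:**
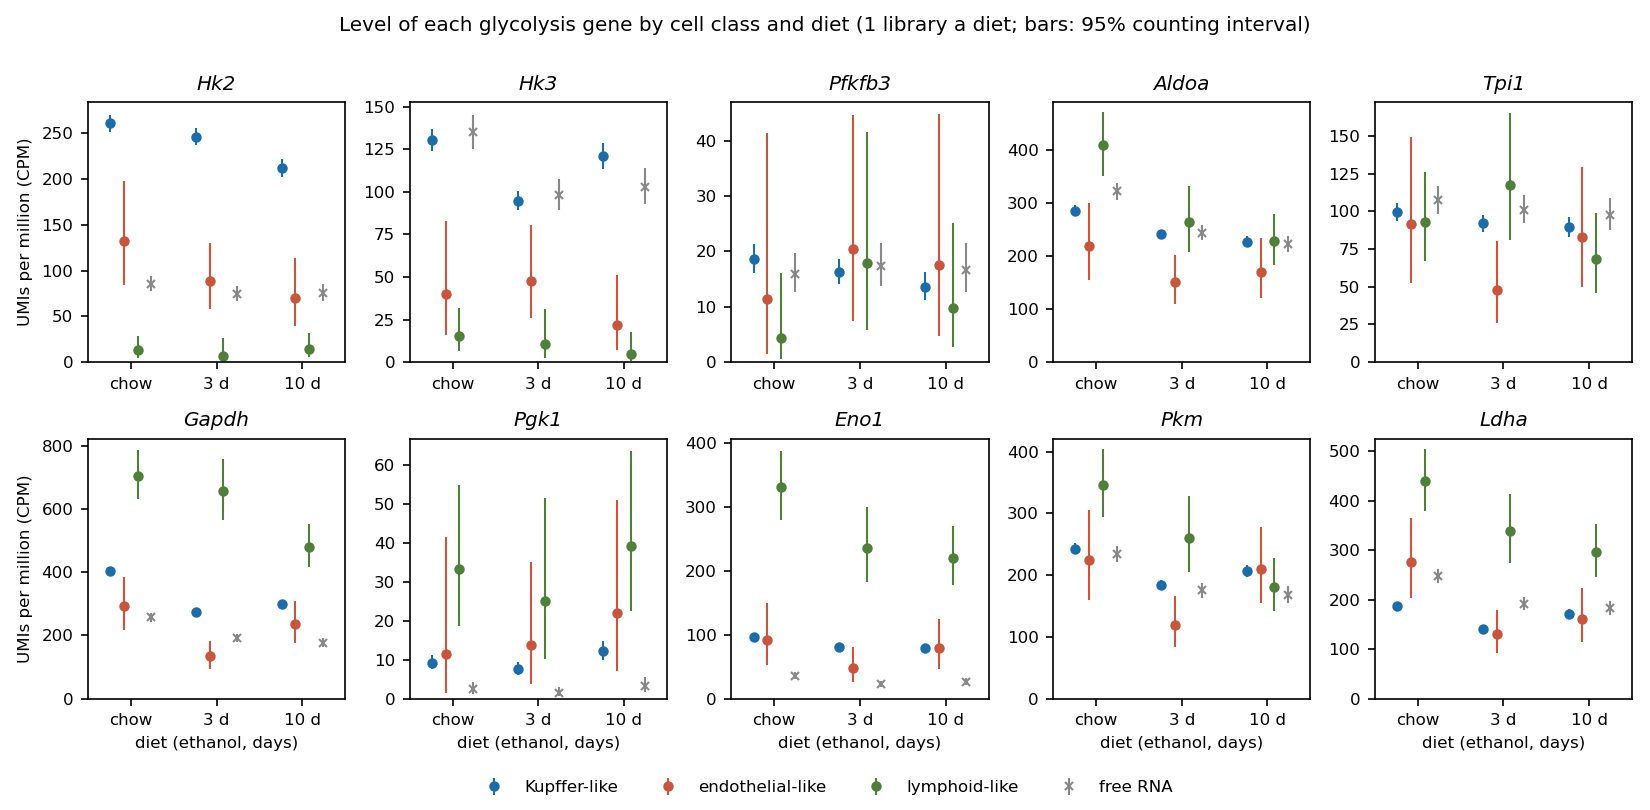
Level of each gene in CPM (vertical axes, each from 0) by diet (horizontal axes) in the 3 cell classes and in free RNA, with 95% counting intervals from 1 library a diet. Kupffer-like Gapdh sits at 405 CPM on chow and at 274 and 298 CPM after 3 and 10 days, and lymphoid-like cells lie highest for Eno1, Gapdh, Ldha and Pgk1 and near 0 for Hk2.

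A gene was counted as lower or higher when its ratio was at 0.8 or below, or at the inverse of 0.8 or above, and its 95% interval excluded 1, among genes that averaged at least 10 CPM in Kupffer-like cells. Of the 10 members 9 reached that level, and Pgk1 did not. After 3 days 4 of the 9 were lower than on chow, against 8.22% of the 7502 genes tested, and 0 of 9 were higher, against 14.6%. All 9 ratios were below 1, with a median log2 ratio of -0.25 (CPM + 1) against 0.04 over all tested genes. After 10 days 3 of the 9 were lower than on chow, against 10.2% of all tested genes, and 0 were higher, against 18%. Again all 9 ratios were below 1, with a median log2 ratio of -0.28 against 0.08. At a fold of 1.5 no member passed in either comparison, against 1.29% of all genes lower and 3.37% higher at 3 days and 2.41% lower and 3.96% higher at 10 days. The same held for 10 days over 3 days, against 2% lower and 2.41% higher.

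The hexokinases trap glucose in the cell by phosphorylating it. Hk2, the inducible isozyme, had 261 CPM on chow, 246 CPM after 3 days and 212 CPM after 10 days. Its ratio over chow was 0.944 (0.897 to 0.994) after 3 days and 0.813 (0.766 to 0.862) after 10 days, and neither passed the fold. The 10-day ratio lay close to it and was past 0.8 when cells were thinned to equal depth (0.784), when the median ratio of all genes was set to 1 (0.770) or when clusters were weighted equally (0.747). Hk3, the isozyme typical of myeloid cells, had 130 CPM on chow, 94.5 CPM after 3 days and 121 CPM after 10 days. It dipped at 3 days and lay near the chow level at 10 days: the ratio was 0.726 (0.671 to 0.785) for 3 days over chow and 0.928 (0.856 to 1.00) for 10 days over chow. It was the only member to pass for 10 days over 3 days, at 1.28 (1.17 to 1.39), so that 1 of 9 was higher, against 11.2% of all genes, and 0 of 9 lower, against 8.64%.

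Pfkfb3 makes fructose 2,6-bisphosphate, the main activator of phosphofructokinase. It was scarce, at 18.6 CPM on chow, 16.3 CPM after 3 days and 13.6 CPM after 10 days, from 213, 193 and 117 UMIs. The 10-day level was lower than chow, with a ratio of 0.734 (0.581 to 0.924). At 3 days its interval, 0.716 to 1.07, held 1.

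Aldoa, the aldolase that splits the sugar bisphosphate, had 286 CPM on chow, 241 CPM after 3 days and 227 CPM after 10 days. The ratio over chow was 0.843 (0.801 to 0.886) after 3 days and 0.795 (0.751 to 0.841) after 10 days, so it passed at 10 days only by a margin that a minimum of 2000 UMIs per cell (0.800), thinning to equal depth (0.830) or a mitochondrial limit of 5% (0.821) removed. Tpi1, which interconverts the triose phosphates, had 99.4 CPM on chow, 91.9 CPM after 3 days and 89.5 CPM after 10 days, and passed in neither comparison.

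Gapdh oxidises the triose phosphate and reduces NAD. Its level was 405 CPM on chow, 274 CPM after 3 days and 298 CPM after 10 days, from 4639, 3254 and 2553 UMIs. It had the lowest 3-day ratio of the measured members, 0.677 (0.647 to 0.708), and the 10-day ratio was 0.735 (0.700 to 0.772). Pgk1, which makes the first ATP of the pathway, was found at only 9.17 CPM on chow, 7.58 CPM after 3 days and 12.1 CPM after 10 days, from 105, 90 and 104 UMIs. It ran the other way at 10 days, with a ratio of 1.32 (0.999 to 1.75) over chow and 1.60 (1.19 to 2.15) over 3 days, but lay under the level set for counting a gene.

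Eno1, the enolase, had 95.6 CPM on chow, 81.1 CPM after 3 days and 78.4 CPM after 10 days, and its ratios over chow of 0.848 and 0.820 stayed within the fold. They depended on the setting: with clusters weighted equally they were 1.119 and 1.181, and with the median ratio of all genes set to 1 the 10-day ratio was 0.777. Pkm, the pyruvate kinase of most non-liver tissues, had 242 CPM on chow, 184 CPM after 3 days and 206 CPM after 10 days. It was lower at 3 days, at 0.760 (0.719 to 0.805), and stood at 0.850 (0.801 to 0.903) at 10 days. Ldha, which makes lactate, followed the same shape as Hk3 and Pkm, with 188 CPM on chow, 142 CPM after 3 days and 172 CPM after 10 days. Its ratio over chow was 0.755 (0.708 to 0.805) after 3 days and 0.914 (0.855 to 0.977) after 10 days.

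**Figure D2:**
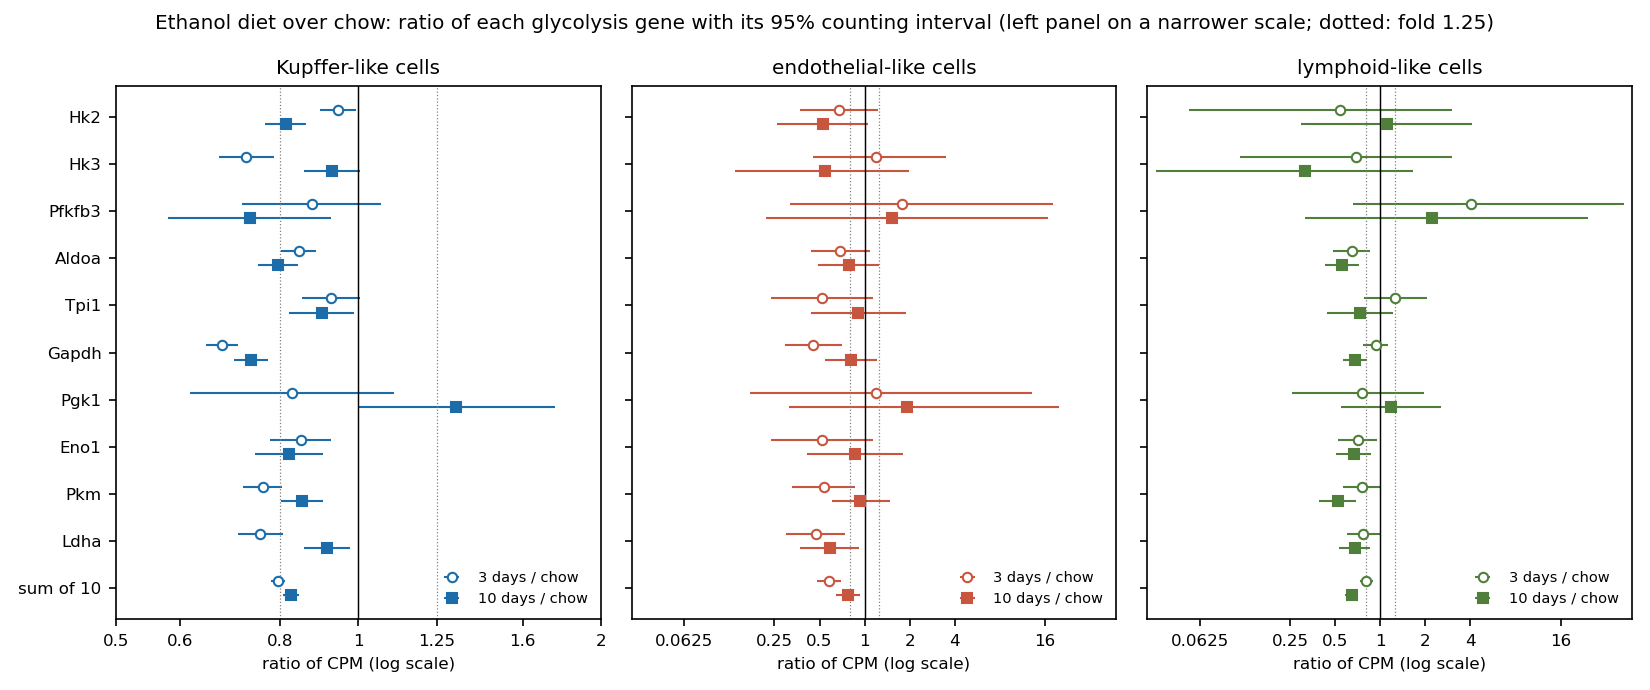
Ratio of CPM on ethanol over chow for each gene and for the sum (log axis, with a narrower scale for Kupffer-like cells), with 95% counting intervals, open circles for 3 days and filled squares for 10 days. In Kupffer-like cells every point but Pgk1 at 10 days lies below 1, between 0.677 and 0.944.

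The summed Kupffer-like ratios lay closer to 1 within clusters than over the whole class. Within each of the 7 Kupffer-like clusters the sum was lower on ethanol than on chow, with ratios of 0.825 to 0.956 for 3 days and 0.833 to 0.992 for 10 days. With every cluster weighted equally the ratios were 0.892 and 0.933. Equal weights count the 38 chow cells of cluster 2 as much as the 1487 of cluster 3. Ratios within clusters are given without intervals. The 10-day ratio of Gapdh ran from 0.915 to 1.16 within clusters, below 1 in 4 of 7, and was 1.009 with equal weights, against 0.735 for the summed class. Its 3-day ratio with equal weights was 0.922. Equal weights also took the 3-day values of Ldha (0.825) and Pkm (0.820) and the 10-day values of Pfkfb3 (0.849) and Aldoa (0.898) within the fold. Hk3 and Pkm were below chow at 3 days in 7 of 7 clusters, with ratios of 0.684 to 0.854 for Hk3 and 0.709 to 0.908 for Pkm, and Hk2 was below chow at 10 days in 7 of 7, at 0.617 to 0.877. Eno1, Tpi1 and Ldha were each above chow in most clusters at 1 or both times, although their summed ratios were below 1. Eno1 was above chow in 4 of 7 clusters at both times, at 0.903 to 2.05 at 3 days and 0.728 to 2.03 at 10 days. Tpi1 was above chow in 5 of 7 at 3 days (0.766 to 1.53), and Ldha in 5 of 7 at 10 days (0.810 to 1.22). The clusters were built from these same cells. Since most cells of cluster 3 came from the chow library, cluster and diet cannot be fully told apart.

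Among the 7 Kupffer-like clusters, pooled over diets, cluster 3 (led by the chemokine gene Cxcl13) had the highest sum, 1777 CPM, and cluster 0, with the lowest median depth at 1669.5 UMIs, had the lowest, 1179 CPM. These pools differ in diet, since 1487 of the 1890 cells of cluster 3 and 202 of the 1612 cells of cluster 0 came from the chow library. Within a diet the sum in cluster 3 was 1806 CPM on chow, 1601 CPM after 3 days and 1710 CPM after 10 days, and in cluster 0 it was 1386, 1144 and 1154 CPM. At 3 days cluster 2, at 1624 CPM, lay above cluster 3. Gapdh was at 444 CPM on chow, 395 CPM after 3 days and 407 CPM after 10 days in cluster 3, and at 160.04, 148 and 169.7 CPM in cluster 0. Pooled Hk2 was at 248 CPM in cluster 3 and 249 CPM in cluster 0. The proliferating cluster 8 had 1410 CPM in all, with Gapdh at 373 CPM and Tpi1 at 126 CPM but Aldoa at 154 CPM, the lowest of the Kupffer-like clusters.

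**Figure D3:**
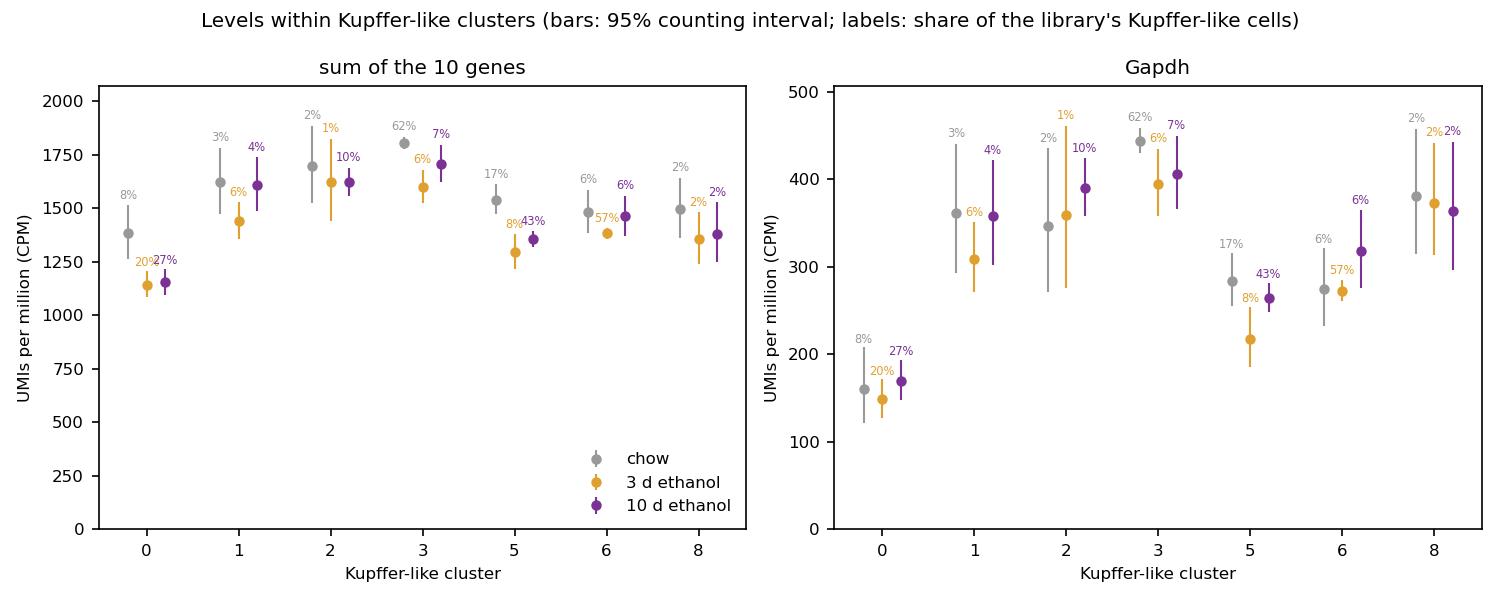
Summed level of the 10 genes (left) and Gapdh (right) in CPM within each Kupffer-like cluster and diet, with 95% counting intervals and the share of that library's Kupffer-like cells above each point. For the sum the chow point is the highest in all 7 clusters, while Gapdh pooled over diets runs from 159 CPM in cluster 0 to 436 CPM in cluster 3.

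Depth and cell quality moved with diet as well. In cells with at least 4000 UMIs the sum was 1808 CPM on chow (1431 cells), 1495 CPM after 3 days (1036 cells) and 1633 CPM after 10 days (718 cells). In cells with 2000 to 4000 UMIs it was 1522, 1308 and 1316 CPM in the same order, and in cells with 1000 to 2000 UMIs it was 1204, 1157 and 1053 CPM. The chow value was thus the highest in each range of depth, and the gap was smallest, at 3 days, in the shallowest cells. In those cells the chow value rested on 365 UMIs, with an interval of 1084 to 1334 CPM. The 3-day interval, 1095 to 1222 CPM, lay within it, and the 10-day interval, 984 to 1125 CPM, overlapped it. Gapdh was higher in deeper cells, at 178, 271 and 448 CPM in the 3 ranges of the chow library, shallowest first, whereas Hk2 was at 274, 289 and 253 CPM there. In cells with at most 5% mitochondrial UMIs the sum was 1848 CPM on chow, 1439 CPM after 3 days and 1589 CPM after 10 days, the last from 346 of 2613 cells.

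Free RNA carried the genes too, and it shifted in the same direction. Kupffer markers summed to 33590, 31823 and 26562 CPM in free RNA on chow, at 3 days and at 10 days. In Kupffer-like cells they summed to 39269, 38246 and 37874 CPM. Free RNA thus held much Kupffer RNA, and subtracting it also takes away RNA of the Kupffer-like cells. The sum in free RNA was 1442 CPM on chow, 1117 CPM after 3 days and 1071 CPM after 10 days, with ratios over chow of 0.775 (0.748 to 0.803) and 0.743 (0.714 to 0.773). Hk2, Eno1, Gapdh, Pgk1 and Pkm were higher in Kupffer-like cells than in the free RNA of every library (Hk2 85.1, 74.9 and 75.7 CPM in free RNA). For Pkm the intervals overlapped on chow and at 3 days. Ldha was lower in Kupffer-like cells than in free RNA on all 3 diets (248, 192 and 183 CPM in free RNA). Its intervals overlapped at 10 days. Aldoa was lower on chow, at 322 CPM in free RNA, with intervals apart. With overlapping intervals, Kupffer-like levels were also below free RNA for Tpi1 on all 3 diets and for Aldoa at 3 days. The same held for Hk3 on chow and at 3 days, and for Pfkfb3 at 3 and 10 days. With free RNA subtracted in an amount set by hepatocyte genes, 47.5%, 18.9% and 32.8% of Kupffer-like UMIs, the summed ratios were 0.720 and 0.802. The part of free RNA in the differences was otherwise not tested. Subtraction ended the 3-day difference of Ldha (0.973) and the 10-day difference of Aldoa (0.908). It took Hk2 (0.682 at 3 days and 0.663 at 10 days) and Eno1 (0.634 and 0.694) past the fold, and Ldha at 10 days turned to 1.24.

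Between classes the genes split by isozyme and by step. Both hexokinases were higher in Kupffer-like cells: Hk2 was 19.6 (8.996 to 53.5), 34.5 (9.54 to 285) and 14.4 (6.62 to 39.4) times its lymphoid-like level on chow, at 3 days and at 10 days. Hk3 was 8.39 (4.06 to 20.9), 8.83 (3.01 to 42.9) and 24.7 (6.82 to 204) times its lymphoid-like level. The lymphoid-like values rested on 2 to 7 UMIs, with Hk2 at 13.3, 7.14 and 14.7 CPM there. Kupffer RNA in the droplets, as scaled by the Kupffer markers, would give 19.0, 16.9 and 14.4 CPM of Hk2. Free RNA scaled in the same way would give 7.25, 6.19 and 7.31 CPM. The part of such RNA in the lymphoid-like values was not tested. The lower part of the pathway ran the other way. Kupffer-like Eno1 was at 0.289 (0.244 to 0.346), 0.344 (0.268 to 0.449) and 0.356 (0.285 to 0.448) of the lymphoid-like level, Gapdh at 0.574, 0.418 and 0.621, and Ldha at 0.427, 0.418 and 0.579. These 3 intervals excluded 1 on every diet, as did those of Pgk1, at 0.275, 0.304 and 0.310. Aldoa and Pkm were lower than in lymphoid-like cells on chow (0.700 each) but at 10 days their ratios, 0.998 and 1.14, had intervals that held 1.

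Taking the sum, lymphoid-like cells had the most on chow and at 3 days (Kupffer-like over lymphoid-like 0.726 and 0.713), and at 10 days the interval of the ratio, 0.855 to 1.006 around 0.927, held 1. Kupffer-like cells exceeded endothelial-like cells on every diet, by 1.248 (1.0997 to 1.42), 1.72 (1.52 to 1.97) and 1.33 (1.18 to 1.52) times.

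Endothelial-like cells had the lowest sums, and the sum was lower on ethanol: 1389 CPM on chow, 799 CPM after 3 days and 1071 CPM after 10 days, from 242, 234 and 245 UMIs. The ratio over chow was 0.575 (0.479 to 0.691) after 3 days and 0.771 (0.643 to 0.925) after 10 days, and 10 days over 3 days gave 1.34 (1.12 to 1.61). In this class and in lymphoid-like cells a gene had to average 50 CPM to be tested, and 7 members did. At 3 days 3 of the 7 were lower than on chow, against 5.49% of 3441 genes, and 0 were higher, against 5.35%. Gapdh was at 133 CPM after 3 days, against 293 CPM on chow, with a ratio of 0.455 (0.292 to 0.704). Ldha was at 130 CPM after 3 days, against 276 CPM on chow (0.471, 0.299 to 0.736), and Pkm at 120 CPM, against 224 CPM on chow (0.534, 0.328 to 0.865). At 10 days Ldha alone was lower, at 162 CPM and 0.587 (0.372 to 0.920) of chow, 1 of 7 against 4.85%, and 0 were higher, against 4.74%. For 10 days over 3 days Gapdh (1.77, 1.15 to 2.75) and Pkm (1.76, 1.11 to 2.80) were higher, 2 of 7 against 5.29%, and 0 were lower, against 5.03%. At a fold of 1.5 the same counts over chow, 3 and 1 lower and 0 higher, stood against 4.42% and 3.84% of all genes lower and 4.62% and 3.89% higher. The 2 genes higher for 10 days over 3 days also passed it, against 4.04% higher and 4.01% lower.

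Other RNA in these barcodes shifted along with the genes. Kupffer markers summed to 14279 CPM on chow, 10383 CPM after 3 days and 10016 CPM after 10 days in the endothelial-like cells, which was 36.4%, 27.1% and 26.4% of the Kupffer-like level. Stellate and fibroblast markers summed to 149, 919 and 415 CPM in the same order, with 3, 5 and 4 of the 6 at 10 CPM or more. Markers of proliferating cells summed to 276, 30.7 and 34.97 CPM, with 7, 1 and 1 of the 8 at 10 CPM or more, so they too were higher on chow. Lymphoid markers summed to 269.8, 92.2 and 442 CPM, with 9, 4 and 11 of the 22 at that level, and so were lowest at 3 days. The part of these markers in the differences was not tested. Hk2 in endothelial-like cells, at 132, 88.8 and 69.9 CPM, stood at 50.6%, 36.1% and 33.0% of its Kupffer-like level, above the shares of the Kupffer markers on each diet. The other members of the class rested on few UMIs: Tpi1 and Eno1 on 14 to 19 per library, Hk3 on 5 to 14, and Pfkfb3 and Pgk1 on 2 to 6.

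Lymphoid-like cells also had lower sums on ethanol: 2389 CPM on chow, 1934 CPM after 3 days and 1542 CPM after 10 days. The ratio over chow was 0.810 (0.729 to 0.899) after 3 days and 0.645 (0.584 to 0.713) after 10 days, and 10 days over 3 days gave 0.797 (0.709 to 0.896). The 1 cell with the most of these UMIs held 6.50% of them on chow and 8.12% at 3 days, and the top 2 cells held 12.7% at 10 days. The intervals treat UMIs of 1 cell as independent. Of 6 members tested, 3 were lower at 3 days, against 3.99% of 2459 genes, and 5 were lower at 10 days, against 10.4%. None were higher at 3 or 10 days, against 5.9% and 5.65%. At a fold of 1.5, 1 and 3 were lower, against 2.77% and 6.75%, and 0 higher, against 4.8% and 4.07%. Aldoa had 408 CPM on chow, 264 CPM after 3 days and 228 CPM after 10 days, with ratios over chow of 0.647 (0.487 to 0.852) and 0.558 (0.430 to 0.719). Eno1 had 331, 236 and 220 CPM in the same order, with ratios of 0.713 (0.525 to 0.958) and 0.666 (0.507 to 0.871). Both glycolytic enzymes were thus lower already at 3 days.

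Ldha had 439, 339 and 296 CPM, with ratios of 0.772 (0.598 to 0.991) and 0.674 (0.533 to 0.850), and its 3-day value moved within the fold when cells were thinned to equal depth (0.849) or when B and plasma cells were added (0.838). Pkm had 346 CPM on chow, 261 CPM after 3 days and 181 CPM after 10 days, and was lower at 10 days, at 0.523 (0.391 to 0.694). Gapdh had 705 CPM on chow, 657 CPM after 3 days and 480 CPM after 10 days, with a 10-day ratio of 0.680 (0.566 to 0.815). For 10 days over 3 days Gapdh (0.730), Pkm (0.695) and Tpi1 (0.582) were lower, 3 of 6 against 9.07%, and 0 were higher, against 3.42%. Only Tpi1 passed a fold of 1.5 there, against 6.83% lower and 2.36% higher. With cells thinned to equal depth the 10-day over 3-day ratios of Gapdh (0.980) and Pkm (0.812) were within the fold, that of Tpi1 was 0.481 and that of the sum was 0.919. With cells thinned to equal depth the 3-day ratio of Gapdh was 0.583, against 0.931 unthinned, and that of the sum was 0.668. Thinning was a random draw made once, and its ratios have no intervals. After it Tpi1 was found in 11 of 90 lymphoid-like cells at 3 days and 9 of 153 at 10 days. Gapdh was then found in 58 of 117 on chow and 31 of 90 at 3 days. The Kupffer markers in these cells were at 7.28%, 6.88% and 6.78% of the Kupffer-like level, and 21 of the 22 lymphoid markers were at 10 CPM or more on every diet. The lymphoid-like class pools T, NK and innate lymphoid cells, and a change of their mix was not tested.

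UMIs count a molecule once whatever its length, so the shares of isozymes within a family can be given. In Kupffer-like cells Hk2 made up 62.5%, 68.1% and 59.9% of hexokinase UMIs on chow, at 3 days and at 10 days, Hk3 31.2%, 26.1% and 34.1%, and Hk1, the isozyme found in most tissues, 6.26%, 5.73% and 5.90%. In lymphoid-like cells Hk1 was the main form, with 60.6% (42.1% to 77.1%), 79.2% (57.8% to 92.9%) and 63.6% (40.7% to 82.8%) of 33, 24 and 22 UMIs.

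Ldha made up 99.3%, 98.7% and 99.46% of lactate dehydrogenase UMIs in Kupffer-like cells. In endothelial-like cells Ldhb, the heart-type subunit, had 5 of 53, 30 of 68 and 10 of 47 such UMIs, or 9.43% (3.13% to 20.7%), 44.1% (32.1% to 56.7%) and 21.3% (10.7% to 35.7%). Ldha was lower and Ldhb higher at 3 days in the summed counts of this class, with Ldhb at 102 CPM after 3 days, against 28.7 CPM on chow. Whether both changes lay in the same cells was not tested. Stellate and fibroblast markers in the class were also higher then, at 919 CPM, against 149 CPM on chow. Near-identical copies share reads with some members: Eno1b had 37, 23 and 24 UMIs and Pgk1-rs7 had 8, 1 and 1 in Kupffer-like cells. How many reads of Eno1 and Pgk1 were lost to such sharing was not measured. The levels of both are therefore uncertain by an unknown amount.

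**Figure D4:**
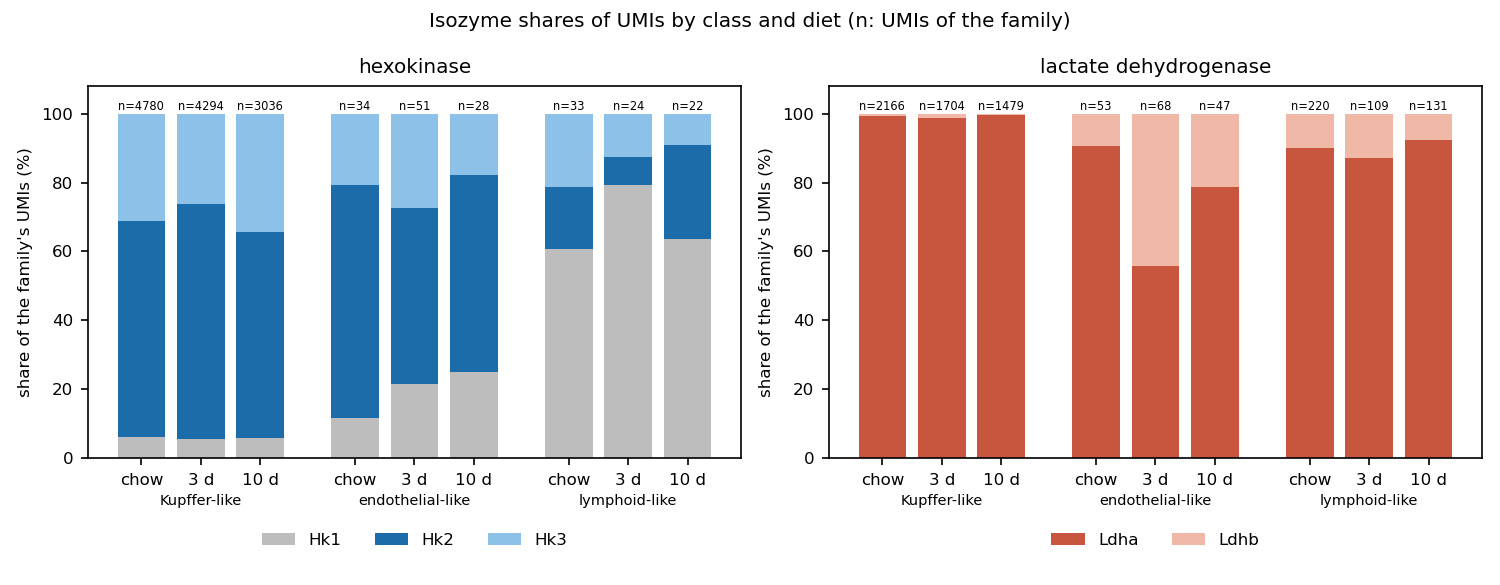
Share of each isozyme in the UMIs of its family (percent, bars from 0 to 100), for hexokinases (left) and lactate dehydrogenases (right), by class and diet, with the number of UMIs above each bar. Hk2 and Hk3 fill most of the Kupffer-like bars, Hk1 is the largest share in lymphoid-like cells, and Ldhb reaches 44.1% in endothelial-like cells at 3 days.

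Cell by cell, each gene was sparse. After each cell was thinned to 1000 UMIs, which kept every cell, Gapdh had a UMI in 29.4% of Kupffer-like cells on chow, 21.2% after 3 days and 21.2% after 10 days (71.6%, 51.7% and 52.0% unthinned, where depth differs). Hk2 had one in 22.7%, 21.5% and 17.9% of Kupffer-like cells (63.7%, 50.1% and 44.3% unthinned). Lymphoid-like cells, which should carry little Hk2, had it in 1.71% on chow and 1.31% at 10 days, and in 0 of 90 cells at 3 days. If 3 counts are allowed, that 0 leaves room for a share of cells with a UMI at that depth of up to 3.33%. The 95% interval of the share reaches 4.02%. Unthinned, the shares were 4.27%, 2.22% and 3.92% on chow, at 3 days and at 10 days. Median depth was 4576, 3034 and 3033 UMIs in Kupffer-like and 3538, 2614.5 and 2448 UMIs in lymphoid-like cells before thinning. At least 1 UMI of the 10 genes was found in 80.4%, 71.9% and 73.1% of Kupffer-like cells, with a mean of 1.66, 1.31 and 1.35 UMIs per cell. The variance over the mean was near 1 for the members, the value for sampling alone. The exception was Hk2 at 10 days, at 1.17, above the 95th percentile, 1.09, of 374 genes of like level. Its UMIs were thus the least evenly spread over cells among the members at that time.

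Lists of related genes, also chosen with earlier results of these data known, were counted by the same rule. In Kupffer-like cells each count stands against all tested genes, of which 8.22% were lower and 14.6% higher than on chow at 3 days, and 10.2% lower and 18% higher at 10 days. Of the other glycolysis enzymes and isoforms, 8 of 21 reached 10 CPM in these cells. Of these 1 was lower at 3 days and 1 lower and 2 higher at 10 days, with median log2 ratios of 0.04 and 0.11, against 0.04 and 0.08 over all tested genes. Hk1 was lower at both times, at 20.7 and 20.9 CPM after 3 and 10 days, against 26.1 CPM on chow (0.794 and 0.800). Pfkp, a phosphofructokinase, was at 31.8 CPM after 10 days, against 25.3 CPM on chow (1.26, 1.06 to 1.49), and Minpp1, a phosphatase of inositol phosphates and bisphosphoglycerate, at 61.9 CPM, against 47.5 CPM (1.30). Among 7 transporters 3 were measured, and Slc2a6, a lysosomal member of the glucose transporter family, was at 21.5 CPM after 10 days, against 8.90 CPM on chow (2.41, 1.88 to 3.10).

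All 7 genes of the pentose phosphate pathway, which branches from glycolysis to make NADPH, were measured. None passed at 3 days, and at 10 days 3 were higher, against 18% of all tested genes, and 1 lower, against 10.2%. Tkt, transketolase, was at 458 CPM after 10 days, against 313 CPM on chow (1.46, 1.40 to 1.53). Pgd, of the oxidative branch, was at 254 CPM after 10 days, against 199 CPM on chow (1.28), and Rpe, an epimerase, at 28.8 CPM, against 23.1 CPM. G6pdx, the entry enzyme, was at 48.2 CPM after 10 days, against 66.9 CPM on chow (0.720, 0.638 to 0.813).

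Of 7 measured genes for the entry of pyruvate into mitochondria, 1 was higher and 1 lower at each time, counts that are close to the shares of all tested genes. Mpc1, a subunit of the mitochondrial pyruvate carrier, was at 36.6 and 28.2 CPM after 3 and 10 days, against 46.4 CPM on chow (0.787 and 0.608). Dlat, a subunit of pyruvate dehydrogenase, was at 31.9 and 32.8 CPM, against 25.05 CPM on chow (1.27 and 1.31). None of the 5 gluconeogenesis genes reached 10 CPM, and of the 4 other regulators of fructose 2,6-bisphosphate 1 did and passed at neither time.

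Of the HIF pathway and its targets outside glycolysis, 13 of 21 genes were measured, and 6 were higher and 0 lower than on chow at each ethanol time, against 14.6% and 18% of all tested genes higher. The median log2 ratios were 0.29 and 0.27, against 0.04 and 0.08. Bhlhe40, a transcriptional repressor, was at 48.05 CPM after 10 days, against 17.7 CPM on chow (2.71, 2.29 to 3.22), and at 17.0 CPM after 3 days. P4ha2, a prolyl hydroxylase subunit, was at 13.1 and 16.9 CPM after 3 and 10 days, against 7.86 CPM on chow (1.66 and 2.15). Egln1, the oxygen sensor that marks HIF for degradation, was at 40.1 and 42.2 CPM, against 30.5 CPM on chow (1.32 and 1.39). Mxi1, a MYC antagonist, was at 42.9 CPM after 3 days, against 25.9 CPM on chow (1.65). Adm, a vasodilator peptide, was at 26.6 CPM after 3 days, against 18.2 CPM (1.47). Ero1l, an oxidase of the endoplasmic reticulum, was at 21.3 CPM after 10 days, against 15.1 CPM (1.41).

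Of 5 measured MYC and glucose sensing factors, 1 was higher at 3 days, against 14.6% of all tested genes, and 2 were higher and 1 lower at 10 days, against 18% and 10.2%. Txnip, a thioredoxin-binding protein that limits glucose uptake, was at 868 and 878 CPM after 3 and 10 days, against 480 CPM on chow (1.81 and 1.83). Of the genes in these lists it alone passed in all 3 classes at both times: its ratio over chow was 1.55 and 1.28 in endothelial-like cells and 1.58 and 1.86 in lymphoid-like cells at 3 and 10 days. Myc was at 37.9 CPM after 10 days, against 23.3 CPM on chow (1.63), and Mlx, a partner of glucose-sensing factors, at 12.4 CPM, against 17.0 CPM (0.726). For 10 days over 3 days Bhlhe40 (2.82), Myc (2.00) and Slc2a6 (2.07) were higher and Mxi1 (0.655) lower.

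Immediate-early genes, which respond to tissue dissociation as well as to other stimuli, were higher in the Kupffer-like cells of the ethanol libraries. Of 15 measured there, 13 were higher at 3 days, against 14.6% of all tested genes, and 10 at 10 days, against 18%. Their sum was 2119 CPM on chow, 3499 CPM after 3 days and 3786 CPM after 10 days in Kupffer-like cells, and Dusp1, a phosphatase of MAP kinases, was at 591 and 613 CPM after 3 and 10 days, against 274 CPM on chow. Their part in the differences of the 10 genes was not tested.

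**Figure D5:**
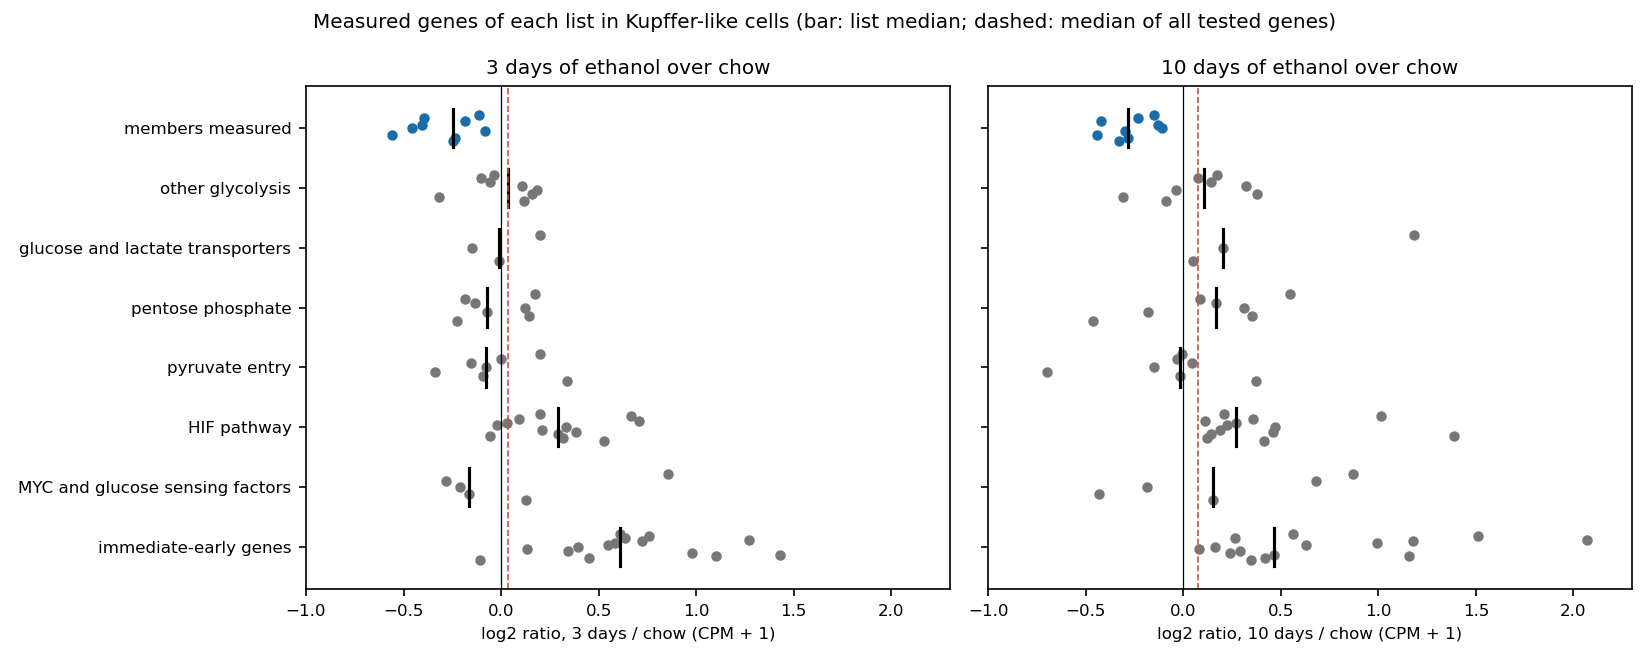
Log2 ratio (CPM + 1) of every measured gene of each list in Kupffer-like cells for 3 days (left) and 10 days (right) over chow, with the list median as a bar and the median of all tested genes dashed. The 9 measured members all lie left of 0, with medians of -0.25 and -0.28, while the HIF list has medians of 0.29 and 0.27 and the immediate-early list 0.61 and 0.46.

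In the other classes fewer list genes were measured. In endothelial-like cells 12 immediate-early genes were measured. Of these 1 was higher at 3 days, against 5.35% of all tested genes, and 0 at 10 days, against 4.74%. Of 7 in lymphoid-like cells 0 were higher at 3 days, against 5.9%. At 10 days 3 were higher, against 5.65%, and 1 lower, against 10.4%. Of 7 HIF genes in endothelial-like cells Epas1 alone was higher at 3 days (1.90), and none passed at 10 days. Of the other glycolysis enzymes 3 were measured in lymphoid-like cells, of which 1 was lower at 3 days, against 3.99% of all tested genes, and 2 at 10 days, against 10.4%. In endothelial-like cells 3 were measured, of which 1, Ldhb, was higher and 1 lower at 3 days, against 5.35% and 5.49%, and none passed at 10 days. Gpi1, the isomerase that follows hexokinase, was at 153 and 142 CPM in lymphoid-like cells after 3 and 10 days, against 242 CPM on chow (0.635 and 0.587). Pgam1, the mutase that precedes enolase, was at 75.9 CPM in lymphoid-like cells after 10 days, against 124 CPM on chow (0.611), and at 64.9 CPM in endothelial-like cells after 3 days, against 132 CPM (0.491). Taldo1, transaldolase of the pentose phosphate pathway, was at 123 CPM in endothelial-like cells after 3 days, against 287 CPM on chow (0.428, 0.271 to 0.671). Mpc1 was at 78.3 CPM in lymphoid-like cells after 10 days, against 129 CPM on chow (0.609), and at 65.6 CPM in endothelial-like cells, against 138 CPM (0.476), so it was lower at 10 days in all 3 classes.

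Across the 9 sums of class and diet, the members differed in how far they varied with the rest. The correlation of log2 (CPM + 10) of a member with the sum of the other 9 was 0.942 for Aldoa, 0.887 for Gapdh, 0.863 for Pkm, 0.786 for Eno1, 0.730 for Tpi1, 0.722 for Ldha and 0.350 for Pgk1. It was -0.569 for Hk2, -0.318 for Hk3 and -0.625 for Pfkfb3. These values mix differences between classes with those between diets. Within Kupffer-like cells the 10-day ratios of Hk2, Hk3 and Pfkfb3 over chow (0.813, 0.928 and 0.734) were below 1, like those of the other measured members. Among 2759 other genes at 50 CPM or more in at least 5 sums, the 5 most like the summed members were Cfl1 (r = 0.976), Ube2l3 (0.935), Cd37 (0.934), Saraf (0.933) and Txn2 (0.929). Cfl1, cofilin, had 1068 CPM on chow, 903 CPM after 3 days and 931 CPM after 10 days in Kupffer-like cells and 1504, 1306 and 1143 CPM in lymphoid-like cells. The 9 sums come from 3 libraries and share their depth and free RNA, so these values describe the sums only.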

How the data were processed

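The deposited files hold raw counts of UMIs per gene for all 737280 barcodes of each library; Cell Ranger 2.2.0 and the builds GRCm38 and mm10 are named per the submitters' processing notes, and the annotation release and cell calling are not given in the sources used here. Barcodes with at least 1000 UMIs and 300 genes and at most 10% mitochondrial UMIs were kept, 2767, 4061 and 3014 of 3030, 4355 and 3492 that reached the UMI minimum, beside the 3000 to 5000 cells per sample in the design text. Scanpy 1.11.5 (2000 variable genes, 30 components, 15 neighbours, Leiden resolution 0.6, without the members and metabolic lists) gave the classes, which were rebuilt here from marker lists. A cluster was called Kupffer-like when the median over the Kupffer markers of its level relative to all cells was at least 0.5 and no other class had 3 markers among its 25 leading genes, and mixed when another class had them. Other clusters were named by at least 3 such markers.

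Scrublet marked 0 cells in all 3 libraries, which means that it did not work, so doublets were not removed. Counts were summed per class and library and given as CPM with exact Poisson intervals. Ratios have exact conditional binomial intervals and shares have Clopper-Pearson intervals, all at 95% (SciPy 1.17.1). A share of 0 allows 3 counts. The interval method was tested on simulated Poisson counts alone, which hold no spread between cells or mice. Whether the mice were processed on 1 day is not given. The named genes were all members, list genes at 0.8 or below or its inverse or above, with an interval without 1 (up to 4 per list and pair of diets), and the 5 genes most like the sum. The members and lists were chosen with earlier results of these data known. Promoters came from RefSeq and coordinates are on GRCm38.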

Additional observations from a re-analysis of the deposited data

Results flagged for a closer look

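Between 10 and 3 days of ethanol, some values moved in opposite directions in different cell classes. Gapdh was higher at 10 days than at 3 days in Kupffer-like (1.09) and endothelial-like cells (1.77) and lower in lymphoid-like cells (0.73). Pkm was higher in Kupffer-like (1.12) and endothelial-like cells (1.76) and lower in lymphoid-like cells (0.695). The sum of the 10 genes was higher in Kupffer-like (1.04) and endothelial-like cells (1.34) and lower in lymphoid-like cells (0.797). Each value compares 1 library with 1 library, and the difference between classes was not tested. For Gapdh in Kupffer-like cells the ratio was 0.995 when cells were thinned to equal depth. With the same thinning the lymphoid-like ratios were 0.980 for Gapdh, 0.812 for Pkm and 0.919 for the sum. These thinned ratios come from a random draw made once and have no intervals.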

How the results depend on the processing

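No paired analysis was possible because each diet has 1 library. The summed Kupffer-like ratio stayed below 1 over chow in every alternative run, between 0.72 and 0.892 for 3 days and between 0.781 and 0.933 for 10 days. For 3 days over chow it moved beyond its counting error with free RNA subtracted (0.72), clusters weighted equally (0.892), the median ratio of all genes set to 1 (0.774) and, chosen after seeing the data, without Gapdh (0.831). For 10 days over chow the same settings gave 0.802, 0.933, 0.781 and 0.851, and a mitochondrial limit of 5% gave 0.86. For 10 days over 3 days, the 5% limit gave 1.104 and subtraction 1.11. Subtraction gave 0.467 in endothelial-like cells (3 days over chow), and thinning 0.668 in lymphoid-like cells (3 days over chow). Between 10 and 3 days, where the alternatives for the sum in these classes were added after seeing the data, subtraction gave 1.703 in endothelial-like cells and thinning 0.919 in lymphoid-like cells. In Kupffer-like cells 42 of 330 ratios of single members moved beyond counting error, and Gapdh at 10 days over chow turned to 1.009 with clusters weighted equally. The cause was not tested.

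Members counted as lower were 0 at a fold of 1.5, against 4 (3 days) and 3 (10 days) in Kupffer-like cells, and 1 and 3, against 3 and 5, in lymphoid-like cells. In lymphoid-like cells, 10 days over 3 days, 1 member was lower at that fold or with the median ratio of all genes set to 1, against 3, and that scaling gave 144 genes higher and 137 lower, against 84 and 223. For 10 days over 3 days in Kupffer-like cells the members higher were 0 at that fold and 2 with no minimum level, against 1. With the median ratio set to 1, 5 members were lower at 10 days, and the split of all genes higher and lower was 872 and 826 at 3 days, against 1098 and 617, and 881 and 1104 at 10 days, against 1351 and 767. In lymphoid-like cells at 10 days it was 203 and 177, against 139 and 255. With no minimum level the genes lower in Kupffer-like cells were 999, against 617, at 3 days, 1165, against 767, at 10 days, and 998, against 648, for 10 days over 3 days. Without it 303 were lower in endothelial-like cells at 3 days, against 189. In lymphoid-like cells 315 were higher and 190 lower at 3 days, against 145 and 98, and 302 higher and 431 lower at 10 days, against 139 and 255. Between 10 and 3 days 279 were higher and 269 lower in endothelial-like cells, against 182 and 173, and 149 and 388 in lymphoid-like cells, against 84 and 223. The 2 to 54 UMIs per member in endothelial-like cells limit what can be seen there.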

Other observations

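Among the other clusters, the 33 hepatocyte-like cells, pooled over diets, had the highest sum, 3365 CPM (2988 to 3776), with Gapdh at 1467 CPM, Ldha at 547 CPM, Eno1 at 536 CPM and Tpi1 at 501 CPM. Hk2 and Pkm were at 11.6 and 34.9 CPM there. The 178 dendritic-like cells had a sum of 1684 CPM (1612 to 1758), with 1953 CPM on chow, 1562 CPM after 3 days and 1295 CPM after 10 days.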
